A study of Aspergillus nidulans with 9 samples.

Results

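The comparison is between 3 *Aspergillus nidulans* libraries labelled Δ*veA* and 3 wild-type (WT) libraries, 6 of the 9 libraries of the series, read across all genes. The members were chosen by genotype label, and 9481 of the 10988 rows of the count table passed the filter on low counts. The WT strain is RDIT9.32 and the Δ*veA* strain is RJW112.2, in which *argB* replaces *veA*, so the mutant is a single strain. The remaining 3 libraries are of the Δ*laeA* strain RJW41.A, in which the marker *methG* replaces *laeA*, and they enter the fit that estimates the spread of all p-values, while their own levels are given only beside those of the Δ*veA*-labelled libraries. All 3 strains were hyphae from shaken liquid minimal medium with 1% glucose, kept for 24 h at 37 °C in the dark. Separate cultures are not stated for the libraries of a strain, and p-values then measure only the spread between these libraries.

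VeA is the founding member of the velvet family of fungal regulators. Its partners include the velvet protein VelB, the importin KapA, which brings it into nuclei when light is absent, and LaeA, a methyltransferase-like regulator of secondary metabolism. VeA itself is known for promoting sexual fruiting and for holding back conidia. The complex of VeA, VelB and LaeA is known for regulating sexual development and for switching on clusters of neighbouring genes that make small molecules.

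Values are CPM, the reads of a gene scaled to the size of its library after TMM normalization, which aligns the libraries so that most genes do not shift, and folds are log2 fold changes of the Δ*veA*-labelled libraries over WT with the standard error (SE) of the fit. A gene is called a DEG at an adjusted p under 0.05 with a change of more than 2-fold, in the quasi-likelihood test of edgeR (Benjamini-Hochberg adjustment). Rose and fell are used of DEGs alone. Library depth, as reads on genes, was 13396869 to 35755046. Of the genes tested, 13.6% rose and 19.9% fell, so 40.6% of DEGs were higher. Of all genes tested, 50.1% had log2 fold changes above 0. These shares are the background for the counts of each list below. With library totals in place of TMM, the median change of all genes moved from 0.0012 to -0.26 and 26.0% of DEGs were higher. The TMM scale is kept below, and rises of list members that the totals take away are given beside the list. The lists hold genes by RefSeq symbol, so they cover the named part of a pathway and not the whole of it.

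Counts assigned to *veA* were higher, not lower, in the libraries labelled Δ*veA*. *veA* (AN1052) stood at 116, 108 and 108 CPM in WT and at 815, 785 and 774 CPM in the Δ*veA*-labelled libraries, a log2 fold change of 2.84 ± 0.0493 (SE). Every direction below is therefore given for these libraries by their label, and the position of the reads within *veA* was not tested. *argB*, the ornithine carbamoyltransferase gene used as the marker of the deletion, rose from 80.5 ± 1.27 to 454 ± 11.1 CPM (SD, n = 3). *pyroA*, a vitamin B6 synthesis gene, had 60.3, 51.4 and 52.8 CPM in WT against 195, 168 and 172 CPM in the Δ*veA*-labelled libraries. The paper's strain list gives a *pyroA* mutation for other strains, and not for RDIT9.32 or RJW112.2. Of the genes next to *veA* in RefSeq order, AN10160 (-1.24 ± 0.0823) and AN1054 (-1.03 ± 0.129) fell, while AN1053 (0.21) was not a DEG. AN1054 was not past 2-fold without WT replicate 2 (-0.96), Δ*veA* replicate 1 (-0.999) or Δ*veA* replicate 2 (-0.996). The partners of VeA moved by less than 2-fold. *velB* had 25.5 ± 0.229 CPM in WT against 43.4 ± 1.38 CPM in the Δ*veA*-labelled libraries, *kapA* 106.5 ± 7.82 and 144 ± 4.14 CPM, and *laeA* 35.8 ± 1.93 and 45.1 ± 4.82 CPM (SD, n = 3). In the Δ*laeA*-labelled libraries, *laeA* stood at 5.72 ± 0.835 CPM.

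Genes of mating and pheromone signalling fell together. Of 10 tested genes of this list, 7 fell and 0 rose, with a median log2 fold change of -1.29. *ppgA*, the pheromone precursor, had 59.7, 55.9 and 58.9 CPM in WT against 4.77, 5.86 and 6.11 CPM in the Δ*veA*-labelled libraries, a fold change of -3.41 ± 0.0874 on the log2 scale. Both pheromone receptors fell as well. *preA* went from 23.05 ± 1.31 to 2.54 ± 0.751 CPM (-3.12 ± 0.14) and *preB* from 18.2 ± 1.75 to 7.32 ± 0.412 CPM (-1.31 ± 0.114). *A. nidulans* is self-fertile and carries both mating-type genes in 1 genome. *MAT2*, the HMG-box gene, had 14.1, 15.7 and 14.7 CPM in WT against 1.36, 1.67 and 1.90 CPM in the Δ*veA*-labelled libraries (-3.22 ± 0.151). *MAT1*, the alpha-domain gene, was near the lower end of what was counted, at 2.34 ± 0.295 and 0.0943 ± 0.0939 CPM (-4.75 ± 0.476). No WT library overlapped a Δ*veA*-labelled library in any of these 5 genes. How many of all genes tested lack overlap was not counted, and 7601 of 9481 passed the adjusted p alone.

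Downstream of the receptors, the MAP kinase gene *mpkB* (-1.27) and its target, the homeodomain regulator *steA* (-1.04 ± 0.0605), fell, and *steA* was under 2-fold without WT replicate 1 (-0.98). The MAP kinase kinase gene *ste7* (-0.34) and the Gβ subunit gene *sfaD* (-0.14) were not DEGs. With library totals the list again gave 7 that fell and 0 that rose. Set directly against the Δ*laeA*-labelled libraries, where 11.6% of all genes were lower in the Δ*veA*-labelled libraries and 6.74% higher, 4 of the 10 genes were lower. *ppgA* was at 61.3 ± 2.40 CPM and *MAT2* at 13.4 ± 1.44 CPM in the Δ*laeA*-labelled libraries, and the direct log2 differences were -3.48 ± 0.088 and -3.06 ± 0.156.

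Among 8 regulators of sexual development, 2 fell and 1 rose, with a median of -0.05. Over all genes tested 19.9% fell and 13.6% rose. *esdC*, a gene of early sexual development, had 1895, 1850 and 1853 CPM in WT against 75.1, 69.0 and 67.6 CPM in the Δ*veA*-labelled libraries (-4.72 ± 0.0536). It was among the 10 DEGs that lost the most CPM of all. *stuA*, an APSES regulator needed for both spore cycles, fell from 571 ± 31.4 to 211 ± 16.2 CPM. The riser was *gprD*, a receptor of the G protein-coupled family known in *A. nidulans* for holding sexual development back. Its 7.89, 5.57 and 7.12 CPM in WT stood against 151, 146 and 146 CPM in the Δ*veA*-labelled libraries, a log2 fold change of 4.49 ± 0.085. In the Δ*laeA*-labelled libraries it was at 19.4 ± 1.41 CPM, and the direct log2 difference was 2.93 ± 0.0754. The GATA regulator *nsdD* (-0.07), *rcoA* (-0.06) and the COP9 signalosome gene *csnE* (0.34) were not DEGs.

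Part of the conidiation genes fell from levels already low in WT. Of 15 tested regulators 6 fell and 0 rose, with a median of -0.54, and with library totals 7 fell. *brlA*, the zinc finger that starts conidiophore formation, was at 18.5, 15.8 and 15.6 CPM in WT and at 1.38, 2.32 and 1.03 CPM in the Δ*veA*-labelled libraries (-3.41 ± 0.184). *wetA*, which acts late in the same pathway, fell from 5.81 ± 1.03 to 0.790 ± 0.171 CPM, and *abaA*, which acts between them, had 2.11 ± 0.111 and 1.11 ± 0.14 CPM and was not a DEG (-0.90). Upstream, *flbE* (-1.08 ± 0.0865) and *flbC* (-1.01 ± 0.0647) fell by little more than 2-fold, while *flbA* (0.30), *flbB* (-0.23), *flbD* (0.64) and *fluG* (-0.07) were not DEGs. *flbC* was under 2-fold without WT replicate 1 (-0.96), Δ*veA* replicate 2 (-0.997) or Δ*veA* replicate 3 (-0.97), and *abaA* passed it without Δ*veA* replicate 1 (-1.03). *tmpA*, a membrane flavoprotein gene of conidiation signalling, fell from 75.5 ± 2.70 to 13.5 ± 2.04 CPM. *tmpL*, a related oxidoreductase gene, had the largest fitted fall of the list (-4.63 ± 1.03), but with 7, 18 and 12 counts in WT and 1 count in all Δ*veA*-labelled libraries its ratio of 34.6 had a 95% counting interval of 6.21 to 1370.

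Spore pigment and hydrophobin genes followed: 6 of 7 fell, 0 rose, and the median was -1.43. Where genes needed at least 10 counts in every library, which leaves out genes near 0 in the Δ*veA*-labelled libraries, 3 of them fell. *rodA*, the hydrophobin of the spore rodlet layer, had 11.7, 12.6 and 12.4 CPM in WT against 0.589, 0.354 and 0.308 CPM in the Δ*veA*-labelled libraries (-4.76 ± 0.218). *ivoB*, of conidiophore pigment, fell from 25.5 ± 1.94 to 9.53 ± 0.753 CPM and *pksP*, a spore pigment polyketide synthase, from 6.48 ± 0.516 to 2.58 ± 0.29 CPM, whereas the laccase gene *yA* had 9.36 ± 0.33 and 8.62 ± 0.896 CPM (-0.12). Summed over 9 markers of conidiophores and conidia, of which 6 fell, the level was 95.9 to 96.8 CPM in WT against 37.7 to 38.0 CPM in the Δ*veA*-labelled libraries, and 0 of the 9 markers were without counts in every library. Fewer spore-forming cells and less RNA per cell cannot be told apart in bulk RNA. Against the Δ*laeA*-labelled libraries the levels differed gene by gene. *tmpA* was higher in the Δ*veA*-labelled libraries (2.83 ± 0.147, with 1.89 ± 0.431 CPM in Δ*laeA*), *wetA* (-2.75 ± 0.245) and *flbE* (-1.02 ± 0.0883) were lower, and for *brlA* (0.43 ± 0.284) and *rodA* (-0.11 ± 0.395) the direct test was not past the threshold. None of the 3 light sensor genes, *lreA* (-0.23), *lreB* (-0.97) and the phytochrome *fphA* (-0.54), was a DEG in edgeR. All 3 had an adjusted p under 0.05, as did 7601 of the 9481 genes tested. *lreB* was called with DESeq2 and without WT replicate 2 (-1.05) or Δ*veA* replicate 1 (-1.08).

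**Figure D1:**
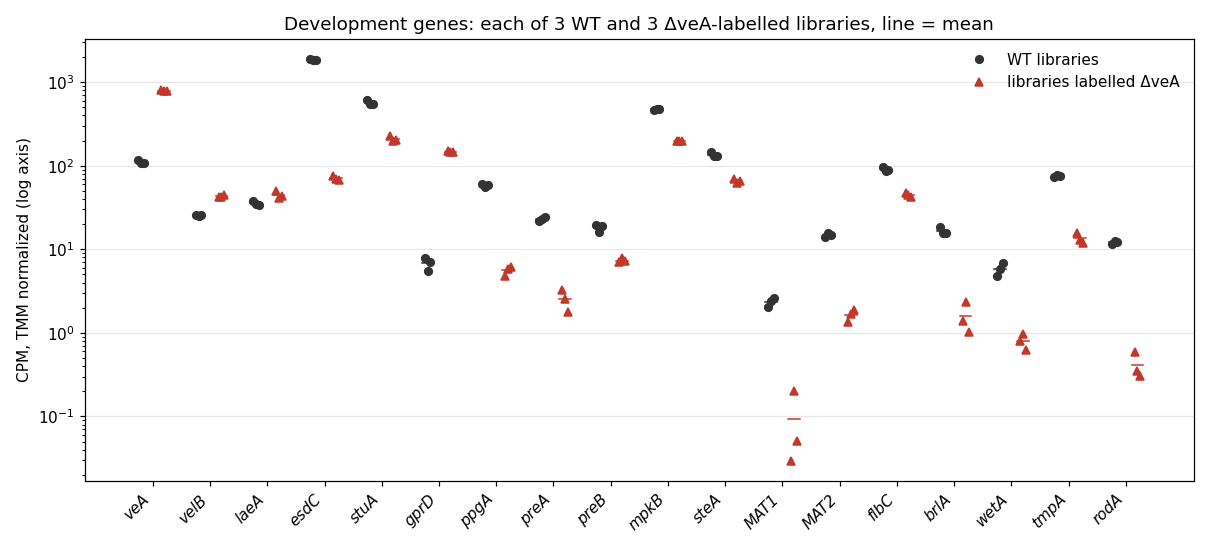
CPM of development genes in each library, on a log axis, with circles for the 3 WT libraries, triangles for the 3 libraries labelled Δ*veA* and a line at each mean. *ppgA*, *preA*, *MAT1*, *MAT2*, *brlA* and *rodA* lie lower in every Δ*veA*-labelled library than in every WT library, *gprD* and *veA* lie higher, and *velB* and *laeA* differ by less than 2-fold.

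Part of the DEGs lay side by side with others of the same direction. Runs were taken as 4 or more consecutive genes in RefSeq order, all DEGs in the same direction. There were 52 falling runs with 268 genes, 15.2% of the falling DEGs placed in the order, and 17 rising runs with 80 genes, 6.57% of the rising ones. The longest falling run had 13 genes and the longest rising run 6. With library totals the numbers were 79 falling and 10 rising runs. Runs may divide a functional cluster or join neighbouring ones, since nothing but position and direction defines them.

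The 13-gene run reached from *tpcI* (AN10023) to AN10039 and held *tpcB* and *tpcC*, symbols taken from the trypacidin genes of *A. fumigatus*. Its median log2 fold change was -9.39. *tpcI* had 130, 125 and 127 CPM in WT against 0.177, 0.253 and 0 CPM in the Δ*veA*-labelled libraries (-9.67 ± 0.15). AN0146 had 289, 279 and 279 CPM against 0.324, 0.657 and 0.154 CPM (-9.56 ± 0.12). AN10038, at 63.6, 73.2 and 67.4 CPM in WT, had no count in any Δ*veA*-labelled library and was at least 518-fold lower, taking 3 counts in each library as the limit. AN10044 had 127 CPM on average in WT and 1 count or none in each library labelled Δ*veA*, a ratio of 4640 with a 95% counting interval of 1280 to 38300. *tpcI* was also low in the Δ*laeA*-labelled libraries, at 0.218 CPM. Of the 13 genes of the run, 6 were lower in the Δ*veA*-labelled libraries in the direct test against Δ*laeA* and 1 was higher.

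An 11-gene run from AN8432 to AN8441 had a median of -7.47. AN8433 was its most counted member, at 471, 421 and 428 CPM in WT against 0.236, 0.455 and 0.154 CPM in the Δ*veA*-labelled libraries (-10.62 ± 0.114). AN8435, AN8434 and AN8438 had no count in any of the latter and were at least 167-, 99.4- and 59.4-fold lower. The falls were small at the AN8441 end alone, with -1.30 for AN11081 and -1.69 for AN8441. AN8432, at the opposite end, fell by 4.96 on the log2 scale (-4.96). In the direct test against Δ*laeA*, 3 of the 11 genes were lower and 0 higher.

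Some falling runs held genes that were not low in the Δ*laeA*-labelled libraries. The 7-gene run from AN3520 to AN3515 held AN3520, which had 55.6, 58.8 and 59.4 CPM in WT against 0, 0.353 and 0.154 CPM in the Δ*veA*-labelled libraries, against 105 CPM on average in those labelled Δ*laeA*. Its fall was -8.67 ± 0.192 against WT and -9.53 ± 0.18 against Δ*laeA*. The end gene AN3515, at 0.900 ± 0.338 CPM in WT, lost its call without WT replicate 3 (edgeR adjusted p = 0.074) or Δ*veA* replicate 2 (edgeR adjusted p = 0.0557), which shortens the run by that gene. AN3519, AN3518 and AN3517 followed the same pattern, with direct log2 differences of -7.60, -7.33 and -7.86. Close by in the order, the 8-gene run from AN3530 to AN3522 held AN3524, at 106.9 CPM in WT, 6.17 CPM in the Δ*veA*-labelled libraries and 581 CPM in those labelled Δ*laeA*. In these runs 5 of 7 and 7 of 8 genes were lower in the direct test. All 7 genes of the run from AN7817 to AN7823 were lower in it too, among them AN7822, at 41.2, 0.872 and 37.4 CPM in WT, Δ*veA* and Δ*laeA* libraries.

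A 7-gene run from AN2957 to AN2951 carried 2 well-counted cell wall genes. *agd3* and *gtb3* take their symbols from *A. fumigatus* genes for galactosaminogalactan, an adhesive sugar polymer of the hyphal surface, where they encode a deacetylase and a glycosyltransferase. *agd3* had 1512, 1293 and 1326 CPM in WT against 80.4, 73.4 and 70.7 CPM in the Δ*veA*-labelled libraries (-4.20 ± 0.0597). *gtb3* had 453, 437 and 433 CPM against 53.2, 48.4 and 45.6 CPM (-3.16 ± 0.0572), and AN2951, at the end of the run, fell from 572 to 62.2 CPM on average. In the Δ*laeA*-labelled libraries, *agd3* was at 931 ± 6.31 CPM and *gtb3* at 377 ± 21.5 CPM, and all 7 genes of the run were lower in the direct test.

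Tyrosine breakdown formed another falling run of 7 genes, AN1894 to AN1900. It held the 4 symbols of this pathway, which all fell, with a median of -1.92. *hmgA*, the homogentisate dioxygenase, had 31.0, 28.6 and 28.6 CPM in WT against 7.75, 6.21 and 7.14 CPM in the Δ*veA*-labelled libraries (-2.04 ± 0.102). *maiA* (-1.94), *fahA* (-1.90) and *hmgX* (-1.50) were under 7 CPM in every library. None of the 4 genes overlapped between the groups. The share of all genes without overlap was not counted, but 7601 of 9481 passed the adjusted p alone.

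Rising runs were shorter. AN8132 to AN8137 was the one with the largest median, 5.74. AN8134 had 0.0652, 0.0489 and 0.0434 CPM in WT against 13.8, 11.7 and 12.7 CPM in the Δ*veA*-labelled libraries (7.84 ± 0.304), and AN8137 had 0.0652, 0.415 and 0.824 CPM against 28.7, 23.1 and 24.8 CPM. In the Δ*laeA*-labelled libraries AN8134 to AN8137 stayed under 1 CPM on average, and 4 of the 6 genes were higher in the direct test. The run from AN3281 to AN3276 rose by 1.36 to 2.63 and that from AN6755 to AN6760 by 1.27 to 1.81 on the log2 scale, with 0 of 6 genes past the direct test in either. The 5-gene run AN3209 to AN3205 held AN3206, at 2.09, 1.88 and 1.74 CPM in WT, 194, 192 and 196 CPM in the Δ*veA*-labelled libraries and 0.177 CPM on average in those labelled Δ*laeA*.

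**Figure D2:**
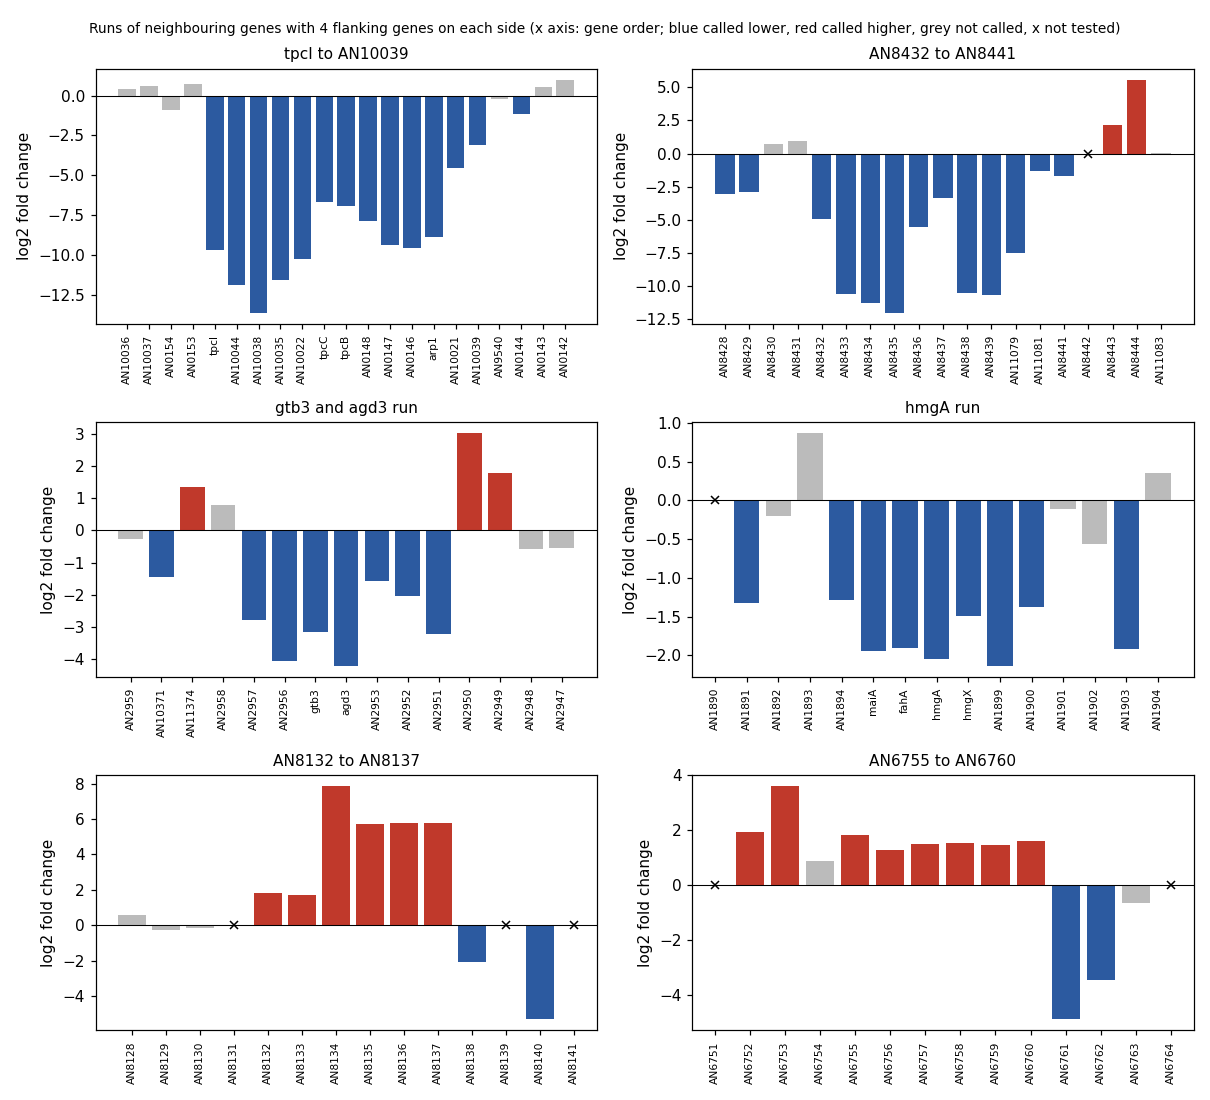
Log2 fold change of each gene in 6 runs of neighbouring DEGs, in gene order, with up to 4 flanking genes on each side. Blue bars fell, red bars rose, grey bars were not DEGs and crosses were not tested. The run with *tpcI* has a median of -9.39 and that with *agd3* of -3.16, and AN8132 to AN8137 rises with a median of 5.74.

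Of 17 tested secondary metabolism symbols 10 fell and 0 rose (median -1.86), and 6 of the 10 lay in runs, the *tpc* genes among them. With at least 10 counts in every library 5 fell. Outside the runs, *nrps1*, a nonribosomal peptide synthetase gene, had 276, 283 and 281 CPM in WT against 1.18, 2.17 and 2.36 CPM in the Δ*veA*-labelled libraries (-7.30 ± 0.0996), below the 8.79 ± 0.206 CPM of those labelled Δ*laeA*. Several members carry the symbols of *A. fumigatus* fumagillin genes. *fma-AT* (-5.17) and *fma-PKS* (-1.86) were neighbours in a falling run of 5 genes, whereas *fmaF* and *fmaG* lay apart from them and from each other, so the symbols do not show a shared product. *fmaF* (-4.92) fell with *fmaG*, which went from 28.9 ± 2.57 to 4.03 ± 0.363 CPM and stood at 64.3 ± 2.76 CPM in the Δ*laeA*-labelled libraries. The transporter gene *mfsA* fell from 67.5 ± 4.10 to 9.46 ± 0.912 CPM, 1 of 5 tested efflux transporter genes.

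Iron genes rose in part. Of 12 tested genes of siderophores and iron, 6 rose and 0 fell, with a median of 1.01. With library totals 5 rose and 1 fell, *mirC* (-1.17). Siderophores are small iron chelators, and the fusarinine type is secreted while ferricrocin stays in the cell. *sidD*, the fusarinine peptide synthetase, had 12.7, 10.9 and 13.2 CPM in WT against 63.1, 56.4 and 57.9 CPM in the Δ*veA*-labelled libraries (2.29 ± 0.0843). *sidH*, of the same branch, rose from 2.88 ± 0.487 to 16.2 ± 0.62 CPM, the esterase gene *sidJ* from 7.33 ± 1.10 to 31.2 ± 1.94 CPM, and *sidI*, of fusarinine synthesis, from 1.76 ± 0.54 to 4.24 ± 1.37 CPM. *sidI* was under 2-fold without Δ*veA* replicate 1 (0.95) and with library totals (0.99). *sidC*, the ferricrocin synthetase, had 41.3, 34.9 and 35.7 CPM in WT against 24.3, 23.8 and 19.8 CPM in the Δ*veA*-labelled libraries (-0.70 ± 0.0856), below the 2-fold threshold.

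Uptake genes were mixed. The siderophore transporter genes *sit1* (8.48, 7.67 and 8.85 CPM in WT, 83.3, 79.2 and 80.4 CPM in the Δ*veA*-labelled libraries) and *sit2* (7.46 ± 0.523 and 41.8 ± 2.40 CPM) rose, while *mirC* (-0.91), *mirB* (0.32) and *mirD* (0.76) were not DEGs. Neither were the iron regulators *hapX* (-0.21) and *sreA* (-0.48). *sidD* and *sidH* lay in a rising run of 4 genes with AN6237 and AN6234, and all 4 were higher than in the Δ*laeA*-labelled libraries. *sidD* was at 10.5 ± 0.600 CPM there (direct log2 difference 2.50 ± 0.0889), but *sit2* at 41.0 ± 1.68 CPM, with a direct difference of 0.03 ± 0.0731. In all, 5 of the 12 genes were higher in the direct test.

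Of 4 zinc transporter genes, *zrfA* rose from 3.43 ± 0.902 to 13.7 ± 1.39 CPM and *zrfC* from 5.44 ± 1.00 to 20.7 ± 0.631 CPM. *zrfB* (0.60) and *zrfD* (-0.70) were not DEGs. Haem and iron-sulphur assembly gave 4 risers of 9 tested genes (2 with library totals) and 0 that fell. *hem13*, the coproporphyrinogen oxidase, went from 1159 ± 68.0 to 3351 ± 116 CPM and *nar1*, of cytosolic iron-sulphur assembly, from 31.4 ± 0.604 to 92.1 ± 2.29 CPM. *nbp35* (1.20) and *hemA* (1.02), the first enzyme of haem synthesis, were nearer the threshold. *hemA* was under it without WT replicate 3 (0.99) or Δ*veA* replicate 1 (0.97) and with DESeq2 (0.99), RLE factors (0.99) or at least 10 counts in every library (0.97), when 3 of the list rose.

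**Figure D3:**
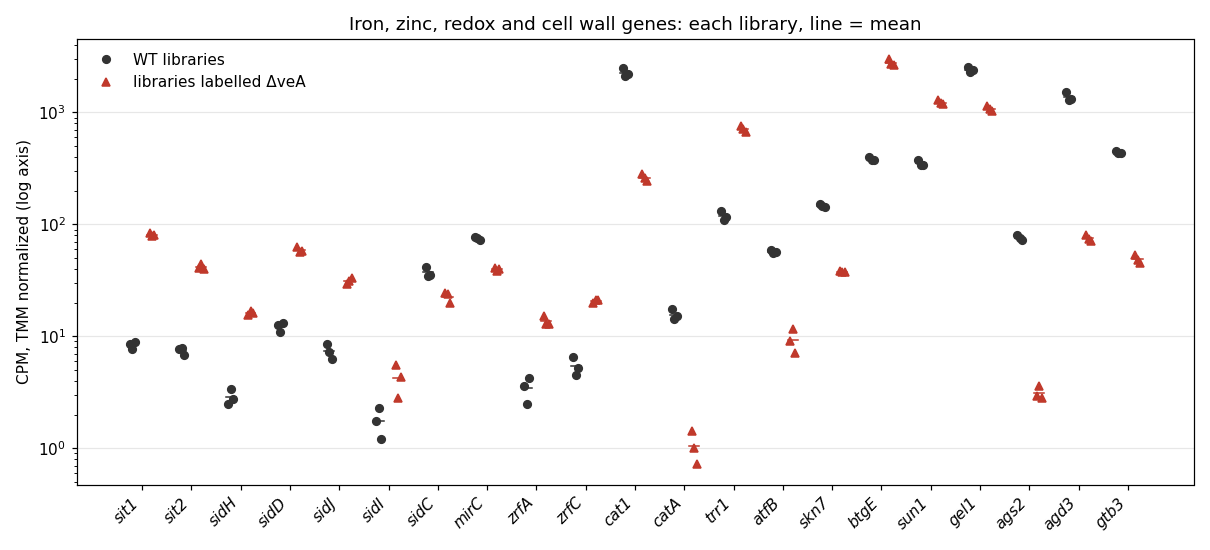
CPM of iron, zinc, redox and cell wall genes in each library, on a log axis, with circles for WT, triangles for the Δ*veA*-labelled libraries and a line at each mean. *sidD*, *sidH*, *sidJ*, *sit1* and *sit2* are higher in every library labelled Δ*veA*, while *sidC*, *mirC*, *cat1*, *catA*, *ags2* and *agd3* are lower.

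Genes of growth and protein synthesis had values mostly above 0 and often near the 2-fold line, and the number called depended on scaling. Of 7 cytosolic ribosomal protein genes 5 rose, with a median of 1.22, and with library totals 1 did. *rpL3* had 551, 554 and 550 CPM in WT against 1541, 1368 and 1336 CPM in the Δ*veA*-labelled libraries (1.36 ± 0.0484). In ribosome biogenesis 27 of 29 genes had values above 0 and 6 rose, led by *rrp36* (1.25) and *rrp3* (1.23), an RNA helicase gene of early processing, with a median of 0.79. None of the 29 was a DEG with library totals. Of the same 29 genes, 10 were higher in the Δ*veA*-labelled libraries in the direct test against Δ*laeA*. None of 6 translation initiation and poly(A)-binding genes was a DEG in edgeR or DESeq2, with a median of 0.63. At the adjusted p alone 5 passed, beside 7601 of all 9481 genes tested. Of 13 tRNA modification and diphthamide genes 1 rose, *trm61*, part of a tRNA methyltransferase, from 10.1 ± 0.937 to 28.2 ± 0.737 CPM.

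All 22 tested amino acid synthesis genes had values above 0, and 10 rose (4 with library totals), with a median of 0.96. *lysB*, of lysine synthesis, had 56.3, 53.2 and 55.1 CPM in WT against 198, 177 and 177 CPM in the Δ*veA*-labelled libraries (1.75 ± 0.0563). *leu2A*, of leucine synthesis, rose from 73.2 ± 1.76 to 203 ± 7.35 CPM and *arg2* from 38.3 ± 1.76 to 97.9 ± 5.38 CPM. *argB*, the selection marker, is counted in this list and had its largest change (2.50). Of 11 nucleotide synthesis genes 4 rose (2 with library totals), among them the GMP synthetase gene *gua1* (1.33) and the adenylate kinase gene *adk1* (1.31). Chaperones gave 5 risers of 11 (2 with library totals), with *sti1*, an Hsp90 co-chaperone, at 1.43 and *hsp60* at 1.36, while the endoplasmic reticulum genes *clxA* (-0.07) and *pdiA* (-0.61) were not DEGs.

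Mitochondrial and sterol genes also rose in part. Of 11 genes of the TCA cycle and respiratory chain 6 rose (4 with library totals) and 1 fell, with a median of 1.09. *cox15*, of haem A synthesis for cytochrome oxidase, went from 70.4 ± 2.43 to 243 ± 5.55 CPM, and *rip1* (1.40), *cox10* (1.27) and the citrate synthase gene *cit1* (1.27) rose with it. The gene that fell was *mcsA*, the methylcitrate synthase of propionate breakdown, from 40.4 ± 5.01 to 13.1 ± 2.00 CPM. Mitochondrial import gave 3 risers of 8 (1 with library totals), with *tim13* at 1.56. In ergosterol synthesis 7 of 17 rose (4 with library totals) and 1 fell. The risers included *erg20* (1.64), *erg4* (1.51) and *erg13* (1.38), and the phosphomevalonate kinase gene *erg8* fell from 463 ± 9.54 to 182 ± 2.16 CPM.

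Carbon and nitrogen genes were mixed. *gpdA*, the glyceraldehyde-3-phosphate dehydrogenase gene, rose from 3247 ± 77.2 to 7956 ± 378 CPM, 1 of 10 tested genes of glycolysis, gluconeogenesis and acetate use, and the carbon repressor gene *creA* (-0.92) was not a DEG. With library totals 1 gene of this list rose and 3 fell, *creA* (-1.19) among them. Of 14 nitrogen genes 2 rose and 2 fell, with a median of 0.26 that became -0.01 with library totals. Over all genes tested 13.6% rose and 19.9% fell. *crnA*, a nitrate transporter, had 77.1, 71.1 and 73.3 CPM in WT against 312, 307 and 284 CPM in the Δ*veA*-labelled libraries (2.03 ± 0.0535), whereas the nitrate and nitrite reductase genes *niaD* (0.69) and *niiA* (0.52) and the regulators *nirA* (0.44) and *areA* (-0.39) were below 2-fold. In the proline cluster the permease gene *prnB* rose from 0.313 ± 0.184 to 3.996 ± 0.380 CPM while *prnC*, an enzyme of proline breakdown, fell from 20.9 ± 1.23 to 4.79 ± 0.786 CPM. The purine hydroxylase gene *hxA* fell from 522 ± 5.90 to 201 ± 4.74 CPM.

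Cell wall genes changed in both directions. Of 15 genes of glucan synthesis and remodelling 5 rose and 3 fell, with a median of 0.25 that became -0.01 with library totals. *btgE*, a gene of the β-glucan remodelling group, had 404, 374 and 377 CPM in WT against 2995, 2717 and 2641 CPM in the Δ*veA*-labelled libraries (2.86 ± 0.0506). *sun1* (350 ± 20.2 to 1227 ± 50.6 CPM), the glucanosyltransferase gene *gel2* (139 ± 2.61 to 452 ± 26.7 CPM), *eng2* (1.22) and *utr2* (1.04) rose too, and the last 2 were under 2-fold with library totals, when 3 rose. *gel1*, of the same family as *gel2*, went the other way, from 2412 ± 119 to 1081 ± 62.9 CPM, and *scw4* fell from 1.79 ± 0.33 to 0.675 ± 0.351 CPM (-1.31). *ags2*, an α-1,3-glucan synthase gene, fell from 79.9, 75.2 and 72.5 CPM in WT to 2.92, 3.58 and 2.83 CPM (-4.62 ± 0.0973), while *ags1* (0.24) was not a DEG. In the direct test against Δ*laeA*, 4 genes of the list were higher and 2 lower. *btgE* (1.70 ± 0.0483), *eng2* (1.26 ± 0.0491), *gel2* (1.12 ± 0.0484) and *sun1* (1.02 ± 0.0468) were higher, and the glucan-modifying enzyme genes *bgt2* (-1.18 ± 0.0458) and *exg1* (-1.05 ± 0.0667), neither a DEG against WT (-0.62 and 0.20), were lower. *utr2* was also under 2-fold without Δ*veA* replicate 1 (0.99) and with at least 10 counts in every library (0.995). Of 10 chitin synthesis genes 1 fell, *chsD* (-1.06), which was under 2-fold without WT replicate 1 (-0.92), WT replicate 2 (-0.999) or Δ*veA* replicate 3 (-0.99). Among 13 plant cell wall degradation genes the pectin methylesterase gene *pmeA* (-2.26) and *pgxB* (-1.43) fell and the cellobiohydrolase gene *cbhB* (1.41) rose. Over all genes tested 19.9% fell and 13.6% rose.

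Among 12 antioxidant enzymes and their regulators 4 rose and 4 fell. *cat1*, a catalase gene of the mycelium, had 2508, 2101 and 2210 CPM in WT against 283, 257 and 244 CPM in the Δ*veA*-labelled libraries (-3.12 ± 0.0588), and *catA*, the spore catalase, fell from 15.6 ± 1.69 to 1.05 ± 0.349 CPM. The regulator genes *atfB* (-2.61 ± 0.0976) and *skn7* (-1.96 ± 0.059) fell, and *atfA* (-0.93) was not a DEG. *trr1*, a thioredoxin reductase gene, rose from 131, 109 and 116 CPM to 755, 713 and 668 CPM (2.59 ± 0.0585), as did *fgaCat* (1.76), *sod4* (1.13) and the glutathione reductase gene *glr1* (1.05). With library totals 2 rose and 5 fell. Of 8 genes of the stress MAP kinase pathway the histidine kinase gene *tcsB* (-1.01) fell and the response regulator gene *sskA* (1.09) rose, and the kinase gene *sakA* (-0.97) was just under 2-fold. Without WT replicate 1 *sakA* passed it (-1.002) and *tcsB* did not (-0.97), and *tcsB* was also under it without Δ*veA* replicate 2 (-0.97) or 3 (-0.995). With library totals *sskA* was under 2-fold (0.83), and 0 of the 8 rose and 2 fell.

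Of 24 genes of G proteins, Ras and kinases 3 rose and 4 fell, beside 13.6% and 19.9% of all genes tested. Beside *gprD*, the receptor gene *gprC* rose from 4.57, 5.40 and 4.47 CPM in WT to 72.7, 69.6 and 73.2 CPM in the Δ*veA*-labelled libraries (3.87 ± 0.0846). *rasB* (1.39) was the third riser. The Gα gene *gpaB* fell from 89.5 ± 0.879 to 31.5 ± 1.29 CPM, the phosphodiesterase gene *pdeA* by 1.40 on the log2 scale, *bck1*, a kinase gene of cell wall integrity, from 117 ± 11.4 to 51.1 ± 2.94 CPM, and *rho2* by 1.01. *rho2* was not past 2-fold without WT replicate 2 or without Δ*veA* replicate 2 (-0.97). *gprC* was at 45.9 ± 1.56 CPM in the Δ*laeA*-labelled libraries, a direct log2 difference of 0.65 ± 0.0658, and *gpaB* at 72.2 ± 0.935 CPM, a direct difference of -1.19 ± 0.06.

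**Figure D4:**
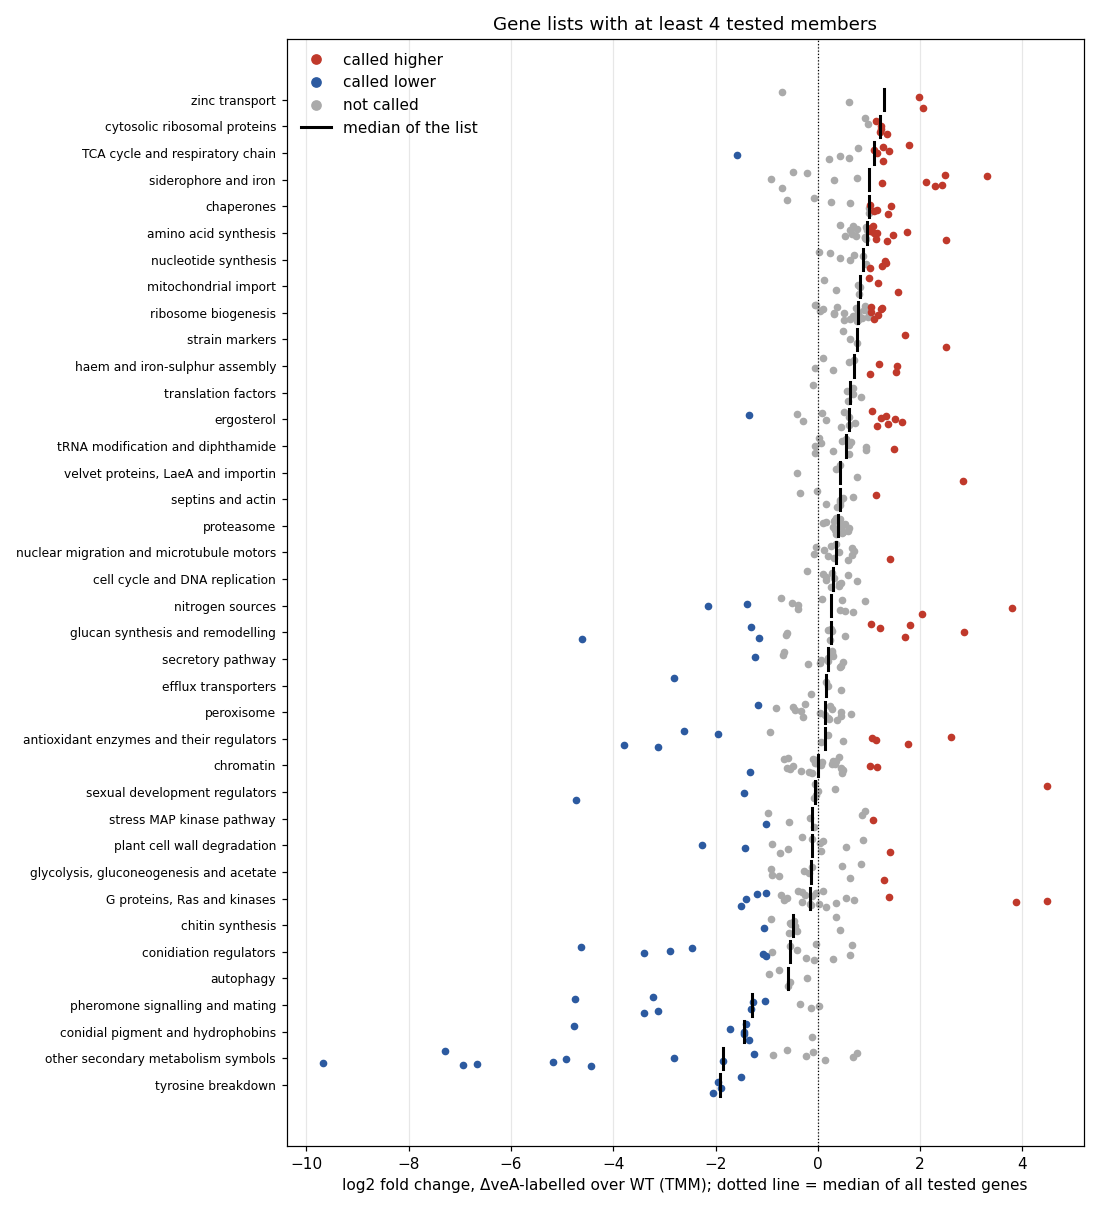
Log2 fold change of the members of each list with at least 4 tested genes, 1 point per gene, red for those that rose, blue for those that fell and grey for the others, with a bar at the median of the list. The dotted line is the median of all tested genes, 0.0012. Pheromone signalling, tyrosine breakdown and secondary metabolism lie to the left (medians -1.29, -1.92 and -1.86), and cytosolic ribosomal proteins and amino acid synthesis to the right (1.22 and 0.96).

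Beyond the lists, the size of the changes was unequal between directions. More than 16-fold changes were seen in 77 genes that rose and 367 that fell, and more than 64-fold changes in 19 and 160. Of the genes that fell, 42 had no count in any Δ*veA*-labelled library, against 0 genes of the reverse kind. Among genes that reached 50 CPM in WT or in the Δ*veA*-labelled libraries, 649 rose and 522 fell.

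The largest fold rises at 50 CPM or more were in genes without a RefSeq symbol. AN1567 had 0.130, 0.195 and 0.130 CPM in WT against 198, 190.5 and 183 CPM in the Δ*veA*-labelled libraries (10.14 ± 0.137). AN11468 (9.51), AN8609 (7.57), AN8095 (7.57), AN7232 (6.87), AN3206 (6.69), AN7087 (6.32), AN7773 (6.31), AN11094 (6.13) and AN2387 (6.08) came next. All 10 were also higher than in the Δ*laeA*-labelled libraries, by 2.79 (AN11094) to 10.04 (AN3206) on the log2 scale. AN11468 and AN8609 each lay in a rising run of 4 genes.

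Among the falls, AN5430 went from 2954, 2677 and 2931 CPM in WT to 0.265, 0.152 and 0.257 CPM (-13.55 ± 0.102). AN3568 had no count in any library labelled Δ*veA* and was at least 441-fold lower, and AN6401 had 1 count in these libraries together, a ratio of 8270 (95% counting interval 1490 to 327000). AN1623 fell by 10.48 and AN20054 by 10.02. AN3304 fell from 78.7 ± 3.51 to 0.0710 ± 0.0778 CPM but stood at 40.0 ± 1.38 CPM in the Δ*laeA*-labelled libraries, and of the 10 largest falls it had the largest direct difference, -9.09 ± 0.191.

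By CPM gained, AN2530 led with 4216, 4517 and 4413 CPM in WT against 17370 CPM on average in the Δ*veA*-labelled libraries (1.99 ± 0.0451). AN3555 rose from 2069 to 9771 CPM, AN5781 from 2021 to 8059 CPM and AN7892 from 1353 to 6957 CPM on average. By CPM lost, AN8781 led, at 4571, 4849 and 4780 CPM in WT against 31.2, 27.6 and 34.6 CPM in the Δ*veA*-labelled libraries (-7.25 ± 0.0675). AN0468 fell from 3576 ± 195 to 168 ± 15.0 CPM and AN1160 from 4373 ± 151 to 1302 ± 54.7 CPM. The latter pair stood at 2143 ± 55.9 and 5405 ± 187 CPM in the Δ*laeA*-labelled libraries, with direct log2 differences of -3.67 ± 0.0572 and -2.05 ± 0.0455.

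**Figure D5:**
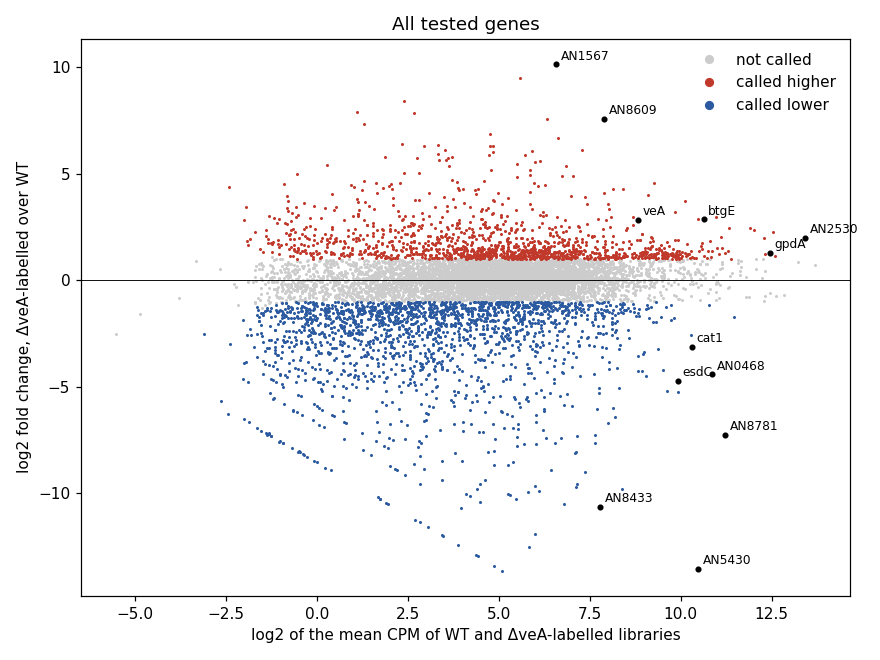
Log2 fold change of every tested gene against the log2 mean CPM of both groups, with DEGs that rose in red, DEGs that fell in blue and 12 genes of the text marked. Changes of more than 64-fold number 160 among the falls and 19 among the rises.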

How the data were processed

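RNA-seq read counts per gene of 9 hyphal libraries, 3 each of WT, Δ*veA* and Δ*laeA*, were used as deposited. The authors made stranded libraries, mapped the reads with HISAT2 2.1 and counted them per gene with featureCounts 1.5.0. The study states default settings unless noted, which in featureCounts means counting without regard to strand. Reads antisense to a gene may then be counted for it. The submitters' processing notes also name DESeq2 1.6.3. The counts were analysed in R 4.3.3 with edgeR 4.0.16 (TMM factors, filterByExpr, robust quasi-likelihood fit of all 9 libraries with genotype as its term, Benjamini-Hochberg adjustment over 9481 genes). TMM factors ran from 0.913 to 1.15. Calls were made at more than 2-fold with an adjusted p below 0.05, after the study's thresholds. The common biological coefficient of variation was 0.0525. Intervals and the limit of 3 counts for a count of 0 cover counting error only.

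RefSeq (assembly ASM1142v1) gave gene symbols and gene order, and its table matched 10032 rows with 779 symbols. It is not the record the study cites, so no coordinates are given. The 41 lists (462 symbols) were drawn up from these symbols, and the members and lists were chosen with earlier results of these data known. Named genes are the deleted gene, its marker and neighbours, up to 4 list members a direction with the largest changes and the regulators of that pathway, the 10 largest rises and falls at 50 CPM or more without overlap of libraries, the 10 largest differences in CPM a direction, and members of the longest runs. Further list members and runs were named after their values were seen. The Hülle cell and cleistothecium markers, and other genes without a matched symbol, were not analysed here. Replicate pairs differed by more than sampling noise (chi-square per degree of freedom 3.27 to 13.3), so each counted as 1 sample. The procedure was tested on simulated data. DESeq2 1.42.0, RLE factors, library totals, other filters and thresholds, only 6 libraries, a replicate block and each library left out were the alternatives. Plots used matplotlib 3.10.9 in Python 3.11.15.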

Additional observations from a re-analysis of the deposited data

How the results depend on the processing

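The counts of DEGs, of list members over all lists together and of runs kept within 1.5 times of their values with DESeq2, RLE factors, a minimum of 10 counts in every library, no filter and only the 6 libraries, where these were run. List by list, the filter of 10 counts moved 8 counts by more than that, DESeq2 3, RLE factors 2 and no filter 1. With library totals alone 824 genes were higher, 43 list members rose (83 with TMM) and 10 rising and 79 falling runs were found. Without a fold minimum 3806 genes were higher and 3795 lower, with 261 and 134 list members, and against a 1.5-fold null (glmTreat) 1964 genes and 134 list members were higher. With 1 gene not called allowed inside a run, 80 falling runs were found. Among the genes named, *ags1* (-0.0255), *exg1* (-0.0575) and AN1053 (-0.0547), each above 0 with TMM, were below 0 with library totals. Lists with 0 members called in a direction had 0 with DESeq2 too, except 1 light sensor gene. Leaving out 1 library at a time gave 1285 to 1314 higher and 1869 to 1937 lower genes, 80 to 86 and 54 to 62 list members, and 16 to 18 rising and 51 to 57 falling runs. Replicate numbers are not stated to be pairs. Correlations of same-numbered WT and Δ*veA*-labelled deviations were 0.101, 0.0409 and 0.0025, against -0.0877 to 0.0459 for unlike numbers. With 3 libraries a group these values cannot exclude pairing. A replicate block gave 1294 higher and 1877 lower genes and 84 and 59 list members. The cause of these shifts was not tested, beyond the looser thresholds themselves. Genes under 1 CPM in both groups made up 44 of the rising and 126 of the falling DEGs, and depth limits their values most.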

Other observations

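In the remaining lists few genes were DEGs. All 16 proteasome genes were above 0 (median 0.40) and all 5 autophagy genes below (median -0.59, *atg15* at -0.95), and none of them was a DEG in edgeR or DESeq2. At the adjusted p alone 15 and 5 passed, beside 7601 of all 9481 genes tested. With library totals 2 autophagy genes were DEGs and 14 of the 16 proteasome genes were above 0 (median 0.14). Of 12 cell cycle and replication genes 11 were above 0, 10 passed the adjusted p and none was a DEG with either tool (median 0.30). With library totals 7 of the 12 were above 0 (median 0.036). Single members passed in other lists. *nudC*, of nuclear migration, rose from 75.4 ± 3.54 to 203 ± 23.8 CPM (SD, n = 3), 1 of 13 genes, and the actin capping gene *cap2* by 1.14, 1 of 10 and under 2-fold with library totals (0.88). Of 2 mitochondrial ribosome genes *rsm25* rose by 1.02, but was under 2-fold with DESeq2 (0.99), RLE factors (0.99), library totals (0.75) and either other filter (0.97 and 0.998), and without WT replicate 1 (0.99) or 3 (0.98).

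Of 26 chromatin genes, the arginine methyltransferase genes *rmtA* (1.15) and *rmt2* (1.03) rose and *adaB*, of the SAGA complex, fell from 133 ± 6.58 to 53.5 ± 2.89 CPM. With library totals neither *rmtA* nor *rmt2* was past 2-fold, and *rmt2* was under it with DESeq2 (0.9996), RLE factors (0.9997) or at least 10 counts in every library (0.98) and without Δ*veA* replicate 2 (0.97). *hacA*, the regulator of the unfolded protein response, fell from 345 ± 18.4 to 147 ± 5.57 CPM and was the DEG among 14 secretory pathway genes, while *ireA* (0.30), which acts upstream of it, was not a DEG. Among 17 peroxisome genes *pxa1* fell by 1.16 on the log2 scale.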
